A study of Oryctolagus cuniculus with 49 samples.

Results

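The genes described here encode the subunits, activators, inhibitor and assembly factors of the proteasome, measured by RNA sequencing in the iris and ciliary body of the rabbit eye. They were chosen by name from the deposited expression table: symbols that begin with PSMA to PSMG followed by a digit, together with POMP and ADRM1. The rule found 46 of the 12948 gene symbols in the table, 0.355% of them, made up of 52 transcripts. Of these, 45 are proteasome parts, and the remaining one, PSMC3IP, shares only the letters of its name and is a cofactor of meiotic recombination. PSMA7, PSMA8, PSMB7, PSMB11 and ADRM1 are not analysed here under their own symbols.

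All rabbits were New Zealand white, an albino laboratory breed, and the operation was lensectomy, the removal of the lens, followed by insertion of an artificial intraocular lens. Of the 49 samples in the labels, the 26 iris and ciliary body libraries are analysed and the 23 cornea samples are not. At 5 weeks of age 7 eyes were unoperated and 3 operated. At 6.5 weeks 3 eyes were operated, and at 6 months 7 were unoperated and 6 operated. The series asks how the front of the eye answers this operation in young and in adult animals, with clotting and inflammation in mind. No unoperated eyes of 6.5 weeks were sampled, so the operated eyes of 5 and 6.5 weeks were averaged and set against the 5-week controls (juveniles). The labels do not say how long after surgery the tissue was taken. The titles give each iris library a number of its own that reads as an animal number, but nothing states that the libraries came from separate animals. The p-values set group differences against the spread between these samples and take the libraries as independent. If some libraries shared an animal, the p-values could be too small.

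The proteasome is the protease that degrades proteins tagged with ubiquitin. Its barrel-shaped core is built from outer alpha rings and inner beta rings, and the cutting sites sit in PSMB5, PSMB6 and PSMB7 of the beta rings. A regulatory particle caps the barrel: the ATPases of its base unfold the substrate, and its lid removes the ubiquitin chain. Interferon induces replacement catalytic subunits, PSMB8, PSMB9 and PSMB10, which form the immunoproteasome, and the PA28 activator made of PSME1 and PSME2; together they favour peptides for display on MHC class I molecules.

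Values are FPKM, a measure of fragment number corrected for transcript length and library size, summed over the transcripts of each symbol. Libraries summed to 412936 to 504202 FPKM over all symbols; no read counts were used, so the sequencing depth behind a value is unknown. Markers of the labelled tissue were present: 6 pigment cell genes summed to 1197 FPKM or more in every library and 5 ciliary epithelium genes to 289 FPKM or more. The pigment cell markers were lower after surgery: their sum was 2540 to 3440 FPKM in unoperated and 1458 to 1967 FPKM in operated juveniles, and 1980 to 2489 and 1197 to 1758 FPKM at 6 months, with 5 and 6 of 6 genes called lower. Of 4 smooth muscle genes 2 were lower and 1 higher in juveniles and 3 lower at 6 months, and of the 5 ciliary genes 3 were lower and 1 higher at each age. The ciliary sum overlapped, at 289 to 483 FPKM in unoperated and 371 to 565 FPKM in operated juveniles. At 6 months it was 415 to 540 and 423 to 589 FPKM. In bulk tissue fewer cells of a type and less RNA per cell cannot be told apart. The part of these marker changes in the changes of the proteasome genes was not tested. Lens crystallin RNA was also present, and CRYAA exceeded 1000 FPKM in 8 libraries. Libraries of the same group resembled each other across all symbols with a median Pearson r of 0.945 to 0.973. In 2 of the 5-week libraries the immune members stood far above the rest of their group, unoperated replicate 6 and operated replicate 3. Unoperated replicate 6 had the highest value of its group for 24 of the 46 members and operated replicate 3 for 31 of 46. Such counts were not particular to them. Operated replicate 3 of 6.5 weeks was highest for 30 members and operated 6-month replicate 2 for 23, and operated 6-month replicate 6 was lowest for 24. The 2 libraries with high immune members are among 3 libraries of 5-week eyes whose numbers come after those of the 6-month libraries. The remaining one, unoperated replicate 7, did not stand apart in these members. Members called in juveniles whose values rest on them are given with and without them. That alternative was chosen after these values were seen. Leaving out a gene's own outliers narrows its spread, so a smaller adjusted p in that fit is no added support.

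Most proteasome genes were expressed at a high and even level. Their mean over the 26 libraries had a median of 43.1 FPKM, against 11.9 FPKM over all symbols, and ranged from 1.90 FPKM for PSMC3IP and 4.23 FPKM for the assembly chaperone PSMG3 to 104 FPKM for PSMB6 and 109 FPKM for the ATPase PSMC5. In 44 of 46 members every library exceeded 1 FPKM; PSMB9 fell to 0.96 FPKM in 1 library, and PSMG3 was listed at 0 in 1. The spread between libraries of one group, as the SD of log2(FPKM + 0.5), had a median of 0.13 over the 43 members outside the immunoproteasome. The same median was 0.17 over the 6646 symbols with a mean of 10 to 120 FPKM. The 3 immunoproteasome subunits had a median SD of 0.85. From the lowest to the highest library PSMD1, a scaffold of the regulatory particle, spanned 1.27-fold and PSMD12, a lid subunit, 1.42-fold. PSMB10 spanned 5.02-fold, PSMB8 20.2-fold and PSMB9 84.8-fold.

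**Figure D1:**
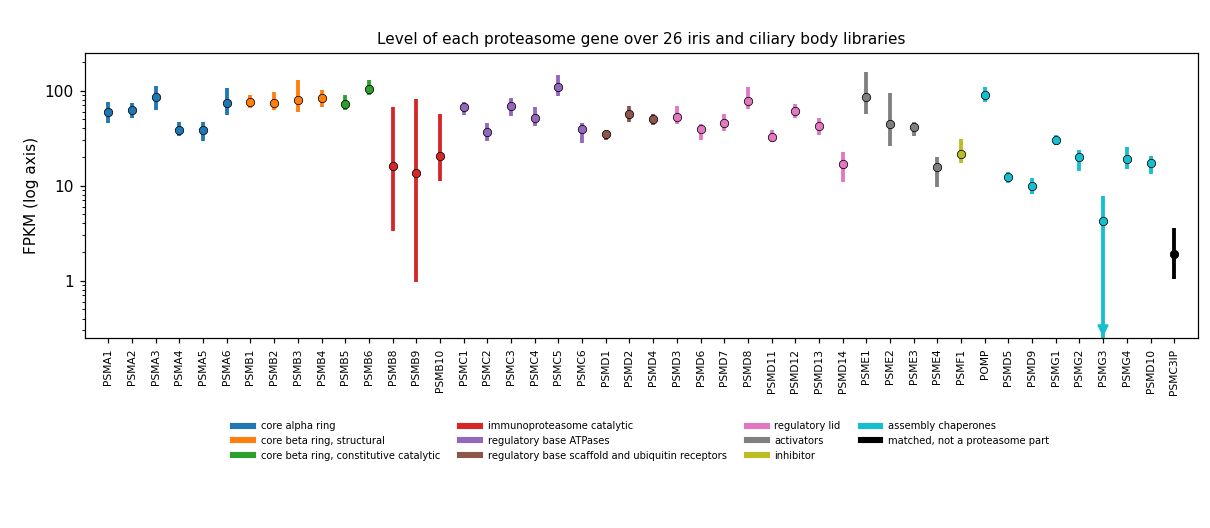
Mean FPKM (point) and range from the lowest to the highest of 26 libraries (bar) for each gene, on a log axis, coloured by class. Most bars are short, while those of PSMB8 and PSMB9 are long; the triangle marks PSMG3, whose lowest library was listed at 0 and falls off the log axis.

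Operated and unoperated eyes were compared with limma on log2(FPKM + 0.5), with one mean per group over all 26 libraries and Benjamini-Hochberg adjustment over the 12948 symbols; a gene was called at an adjusted p under 0.05. At 6 months 5 members were higher after surgery and 5 lower, against 16.0% of all symbols called higher and 30.1% called lower. In juveniles 7 members were higher and 2 lower, against 16.5% and 20.8% of all symbols. The members called were therefore no larger a share than among all symbols. Those called in both comparisons were 4: PSMB3 and PSMA4 of the core were higher, and PSMC2 and PSMD12 of the regulatory particle were lower. They are 4 of the 10 called at 6 months and 4 of the 9 called in juveniles. Of all symbols 46.1% were called at 6 months and 37.3% in juveniles, and the share called in both was not counted. The comparisons share no library, but both use the same estimate of each gene's spread. Without the 8 libraries above 1000 FPKM of CRYAA, which leaves 3 unoperated 5-week eyes, 4 members were higher and 5 lower at 6 months, but in juveniles PSMB3 (0.43, adjusted p 0.0163) and PSMC2 (-0.23, adjusted p 0.0326) alone passed. No member was called in the test of the difference between the surgery effects at the 2 ages by limma (3 of 46 had an unadjusted p under 0.05; 1.09% of all symbols were called, 0.734% higher and 0.355% lower).

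Because FPKM depends on everything else in a library, the shift of the typical gene is needed as a reference: surgery moved the median symbol by a log2 of -0.11 at 6 months and -0.06 in juveniles. With libraries scaled by the median ratio of their genes the median symbol moved by -0.01 and -0.03, and with the FPKM of each library scaled to one sum by -0.24 and -0.18 (equal-sum scaling). At 6 months the counts of called members were then 10 higher and 1 lower under the first scaling, and 2 higher and 16 lower under the second. Against the median symbol itself 34 of the 46 members lay above it at 6 months under each of the 3 scalings, by a median of 0.12 on the deposited scale. In juveniles 36 lay above it on the deposited scale and 37 on the others. Scaling a library moves all its symbols by nearly the same amount, so a position against the median symbol hardly changes with it. Agreement between scalings in this position is therefore no added support. Changes of about 0.2 in either direction therefore depend on the scaling, and the larger ones below are given with both alternatives where the call or the direction differed.

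**Figure D2:**
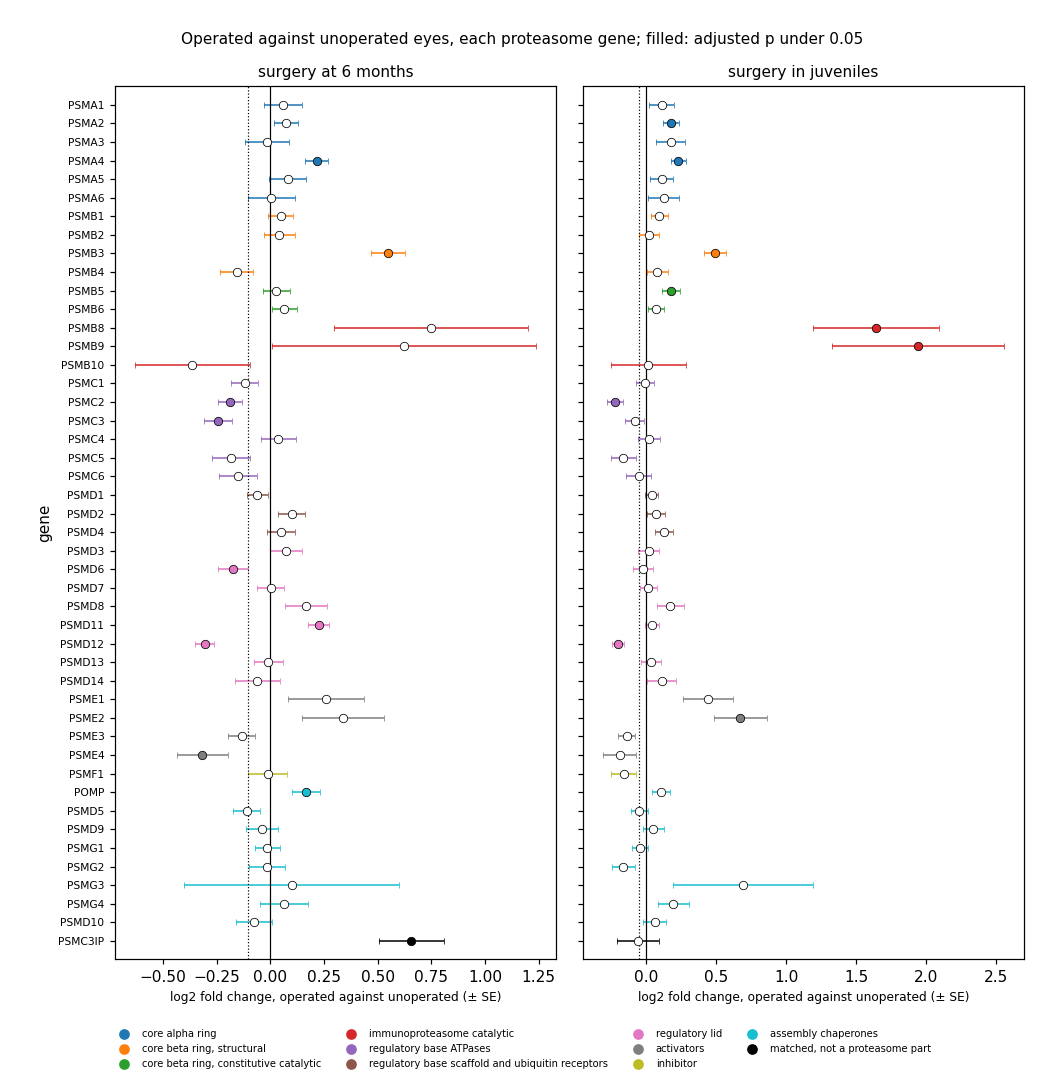
Log2 fold change of each gene, operated against unoperated, with its SE, at 6 months (left) and in juveniles (right); the horizontal scales differ. Filled points had an adjusted p under 0.05; the dotted line is the median of all symbols, -0.11 on the left and -0.06 on the right, and most points of the core lie to its right.

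Core particle genes were mostly above the general trend. All 6 measured alpha ring genes lay above the median symbol in both surgery comparisons. Of the 12 constitutive core genes, 11 lay above it at 6 months and 12 in juveniles. By the test 2 of 12 were higher at 6 months (PSMA4 and PSMB3) and 4 of 12 in juveniles (PSMA2, PSMA4, PSMB3 and PSMB5), against 16.0% and 16.5% of all symbols. The 6-month count is thus near the share of all symbols. None was lower in either comparison by limma, adjusted or at an unadjusted p under 0.05, against 30.1% and 20.8% of all symbols called lower.

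PSMB3, a beta subunit without a cutting site, showed the clearest rise. Its level was 60.5 to 76.8 FPKM in the 6-month unoperated eyes (median 70.8) and 89.7 to 129.9 FPKM in the 6-month operated eyes (median 98.1). In unoperated 5-week eyes it was 59.6 to 74.2 FPKM (median 63.0), in the 3 operated 5-week eyes 87.9, 78.7 and 89.9 FPKM, and in the 3 operated 6.5-week eyes 93.6, 82.8 and 106 FPKM. The operated and unoperated eyes did not overlap at either age. The log2 fold change was 0.55 ± 0.08 (SE) at 6 months, 1.46-fold, with a limma adjusted p of 4.64e-06, and 0.49 ± 0.08 in juveniles, 1.40-fold, with an adjusted p of 2.48e-05. PSMB3 was called under every scaling, between 0.40 and 0.65 at 6 months and between 0.36 and 0.52 in juveniles, and without each library in turn. The difference between the ages was 0.06, with an adjusted p of 0.869.

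PSMA4, an alpha ring subunit, rose less but with as little overlap. Unoperated eyes had 35.03 to 38.1 FPKM at 6 months and operated eyes 39.7 to 46.1 FPKM. Among juveniles, unoperated eyes had 33.5 to 36.6 FPKM, the 5-week operated eyes 36.8, 37.2 and 46.8 FPKM, and the 6.5-week operated eyes 42.8, 40.95 and 40.7 FPKM. No operated eye was as low as any unoperated eye of its age class. The log2 fold change was 0.22 ± 0.05 (adjusted p 0.00183) at 6 months and 0.23 ± 0.05 (adjusted p 0.00148) in juveniles. With libraries scaled to an equal sum these were 0.07 and 0.10 and were not called, and the juvenile change was not called without the libraries rich in CRYAA (0.22, adjusted p 0.0523). Its neighbour in the ring PSMA2 was called in juveniles only, at 0.18 (adjusted p 0.0163), and was not called without operated 5-week replicate 3 (adjusted p 0.0613). At 6 months PSMA2 changed by 0.07 (adjusted p 0.293), and the difference between the ages was -0.10 (adjusted p 0.626). PSMA1, PSMA3, PSMA5 and PSMA6, which complete the measured ring, were not called at either age, and none had an unadjusted p under 0.05.

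The standard catalytic subunits gave 1 call, in juveniles. PSMB5, which carries the chymotrypsin-like site, was at 64.96 to 78.6 FPKM in unoperated and 65.9 to 79.5 FPKM in operated eyes at 6 months, ranges that nearly coincide. In juveniles it was at 61.8 to 70.1 FPKM in unoperated eyes, at 77.6, 67.9 and 70.7 FPKM in the 5-week operated eyes and at 73.1, 72.4 and 90.2 FPKM in the 6.5-week operated eyes. That difference was 0.18 ± 0.06, 1.13-fold, with an adjusted p of 0.0278, and it was no longer called when any of 4 libraries was left out, unoperated replicates 1 and 7, operated replicate 1 of 5 weeks and operated replicate 3 of 6.5 weeks (adjusted p up to 0.107), or under equal-sum scaling (0.05). At 6 months it was 0.03, with an adjusted p of 0.738. PSMB6, the caspase-like site, stood at 97.5 to 118 FPKM in unoperated and 103 to 128 FPKM in operated eyes at 6 months, and differed by 0.07 (adjusted p 0.37). Its juvenile values were 90.5 to 103 FPKM in unoperated eyes, 102, 94.9 and 91.8 FPKM in 5-week operated and 102, 102 and 112 FPKM in 6.5-week operated eyes, also 0.07 apart (adjusted p 0.388).

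Of the immunoproteasome subunits, PSMB8 and PSMB9 had the largest increases of all 46 members in juveniles. PSMB8, which takes the place of PSMB5, was at 3.30 to 5.06 FPKM in 6 of the 7 unoperated 5-week eyes and at 19.1 FPKM in replicate 6. The 5-week operated eyes had 12.4, 10.15 and 66.8 FPKM and the 6.5-week operated eyes 11.48, 12.3 and 17.2 FPKM. Every operated juvenile eye was above those 6 controls, and only replicate 6 overlapped them. The log2 fold change was 1.64 ± 0.45, 3.13-fold, with an adjusted p of 0.00594. It lay between 1.22 and 1.95 in the 13 fits without 1 library and was called in each, and it was 1.53 (adjusted p 0.00161) without both libraries that stood apart. With the 6.5-week operated eyes alone it was 1.35 and missed the threshold (adjusted p 0.0673), as it did without the libraries rich in CRYAA (1.37, adjusted p 0.163), where unoperated replicate 6 is 1 of 3 controls.

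PSMB9, which takes the place of PSMB6 and lies beside PSMB8 and the peptide transporter genes TAP1 and TAP2 in the RefSeq gene order, followed the same pattern with more scatter. Unoperated 5-week eyes had 0.96 to 3.85 FPKM apart from 23.1 FPKM in replicate 6. The 5-week operated eyes had 9.90, 5.93 and 81.5 FPKM and the 6.5-week operated eyes 8.18, 11.7 and 10.7 FPKM, all above the 6 lower controls. The log2 fold change was 1.94 ± 0.61, 3.85-fold (adjusted p 0.0155), and 1.85 (adjusted p 0.00299) without both libraries that stood apart. Without operated 5-week replicate 3 alone it was 1.39 and not called (adjusted p 0.0647).

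At 6 months the unoperated eyes already covered a wide range, and neither gene passed. PSMB8 was at 4.0 to 29.4 FPKM in unoperated eyes (median 13.9) and 16.1 to 34.5 FPKM in operated eyes (median 21.03), and PSMB9 at 2.33 to 29.04 (median 9.44) and 9.67 to 27.9 FPKM (median 15.3). The differences were 0.75 ± 0.45 (95% interval -0.18 to 1.68, adjusted p 0.18) and 0.62 ± 0.61 (-0.65 to 1.90, adjusted p 0.424). The surgery effect at 6 months minus that in juveniles was -0.90 for PSMB8 (adjusted p 0.58) and -1.32 for PSMB9 (adjusted p 0.547), so the ages were not shown to differ.

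PSMB10, the remaining inducible subunit, was not called at either age. It was at 14.7 to 32.3 FPKM in unoperated 5-week eyes, at 13.1, 15.4 and 56.8 FPKM in 5-week and 15.3, 16.8 and 18.5 FPKM in 6.5-week operated eyes. At 6 months it was at 14.6 to 35.8 FPKM in unoperated eyes (median 21.5) and 11.3 to 28.5 FPKM in operated eyes (median 15.5). The juvenile change was 0.02, with a 95% interval of -0.54 to 0.57 and an adjusted p of 0.971, and the 6-month change -0.36 ± 0.27 (adjusted p 0.278). Only operated replicate 3 at 5 weeks stood clearly above the controls.

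**Figure D3:**
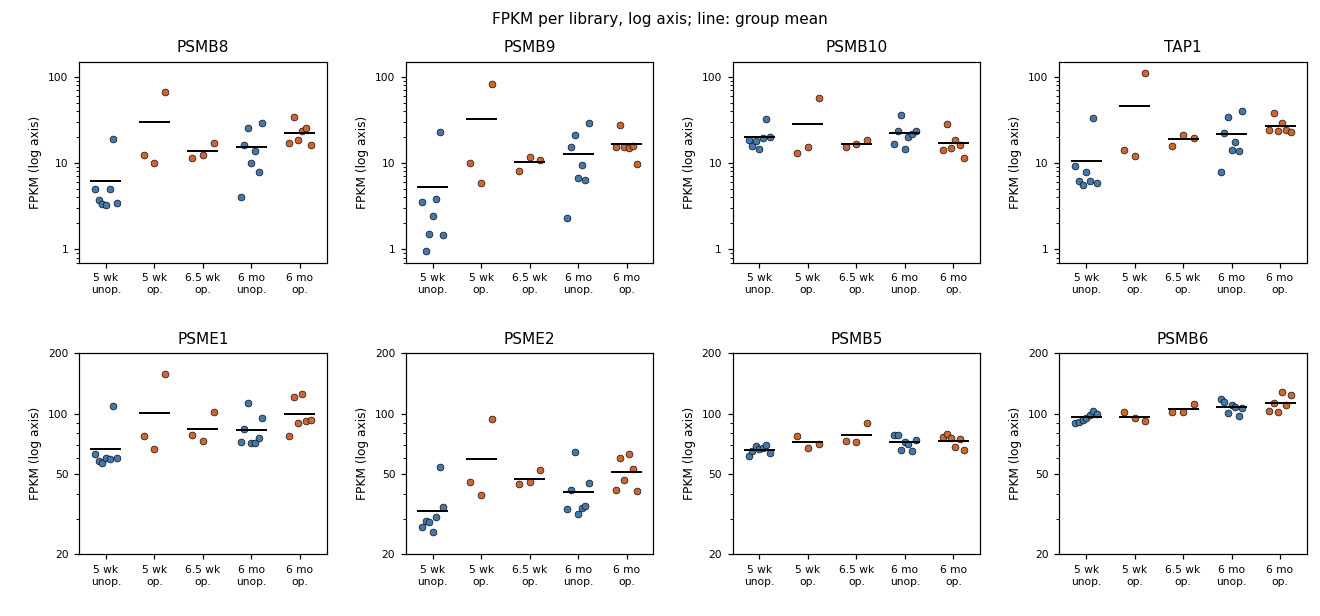
FPKM per library on a log axis for the 3 immunoproteasome subunits, TAP1, both PA28 subunits and the standard subunits PSMB5 and PSMB6; blue points are unoperated and orange points operated eyes, and lines are group means. In PSMB8, PSMB9 and TAP1 single libraries of both 5-week groups lie far above the rest, at 19.1 and 66.8 FPKM for PSMB8, whereas PSMB5 and PSMB6 stay within a narrow band.

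Set against the standard subunit it replaces, PSMB8 was 4.83% to 27.2% of PSMB5 in unoperated 5-week eyes (median 5.70%), 15.9%, 14.9% and 94.5% in 5-week operated eyes and 15.7% to 19.03% in 6.5-week operated eyes. At 6 months the ratio was 5.09% to 39.9% in unoperated eyes (median 19.6%) and 22.3% to 43.4% in operated eyes (median 29.5%). PSMB9 as a share of PSMB6 had a median of 2.56% in unoperated 5-week eyes, 9.65% in the operated juveniles, 8.73% in unoperated and 14.6% in operated 6-month eyes. In operated 5-week replicate 3 it reached 88.7%, so that the inducible subunit was nearly level with the standard one in that eye. PSMB10 against 2 loci described as proteasome subunit beta type-7, the standard subunit it replaces, had medians of 15.1% and 12.7% in unoperated and operated juveniles and 16.6% and 12.3% at 6 months. Its means were 15.7% and 17.3% in juveniles, where operated 5-week replicate 3 reached 42.4%, and 17.3% and 13.1% at 6 months. These ratios compare RNA levels per length within a library, do not change with library scaling, and were not tested.

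**Figure D4:**
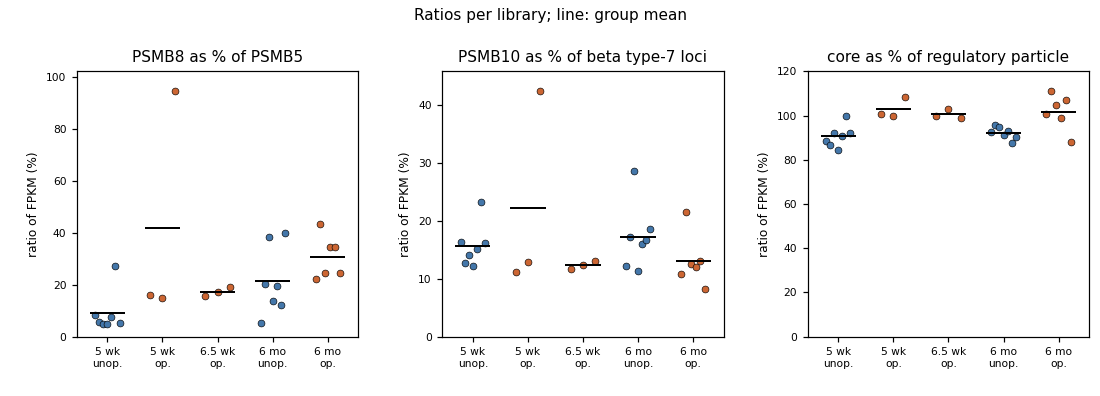
Ratio of FPKM in each library, in percent, for PSMB8 to PSMB5, PSMB10 to the beta type-7 loci and the 12 constitutive core genes to the 17 genes of the regulatory particle; blue points are unoperated and orange points operated eyes, lines are group means and each axis starts at 0. In the right panel all 6 operated juvenile eyes are at 99.1% or more, and 6 of the 7 unoperated 5-week eyes are at 92.1% or less.

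Markers of white blood cells were higher in operated eyes at both ages. The summed FPKM of 5 leukocyte genes was 32.5 to 81.6 in unoperated 5-week eyes and 138 to 398 in operated juveniles, and 49.5 to 142 and 128 to 293 at 6 months. All 5 leukocyte genes were called higher in juveniles and 4 at 6 months, and all 8 macrophage genes in both comparisons. The 3 neutrophil genes measured of 5 listed were higher in both. The 3 lymphocyte genes measured of 8 listed (CD3D, CD3E and LCK) were higher in juveniles and none passed at 6 months by limma, with no unadjusted p under 0.05. Without operated 5-week replicate 3 none of the 3 was called in juveniles (CD3E 1.14, adjusted p 0.0639), and without both libraries that stood apart all 3 were (CD3E 1.45, adjusted p 0.00955). None of the 3 was called in juveniles without the libraries rich in CRYAA. Operated 5-week replicate 3 had the highest leukocyte sum, 398 FPKM, and a lymphocyte sum of 85.0 FPKM where the other operated juveniles had 3.25 to 6.01. Unoperated 5-week replicate 6 had a lymphocyte sum of 8.66 FPKM, against a group median of 0.62. The part these cells had in the immunoproteasome values was not tested.

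Genes of peptide loading, the step after the proteasome in class I display, were called alongside PSMB8 and PSMB9 in juveniles. Of 7 measured of 8 listed, 4 were higher (the peptide transporter genes TAP1 at 1.35 and TAP2 at 0.93, the class I light chain B2M at 1.11 and TAPBP, which ties the transporter to class I molecules, at 0.80) and CANX, a chaperone of the endoplasmic reticulum, was lower at -0.30. Without both libraries that stood apart the same 4 were called (TAP1 1.16, TAP2 0.91, B2M 0.93 and TAPBP 0.85). None of the 7 was called in juveniles without the libraries rich in CRYAA. Without operated 5-week replicate 3 alone, in which TAP1 was at 112 FPKM against 14.1 and 12.2 FPKM in the other 5-week operated eyes, TAPBP was the one still called (0.67, adjusted p 0.0366). At 6 months only TAPBP was higher, at 0.61 (adjusted p 0.0387), and CANX was lower at -0.18. Of 8 listed regulators of proteasome genes, the class I transactivator NLRC5 was higher in juveniles at 1.42 (adjusted p 0.017) and the interferon-responsive factor IRF1 at 0.94 (adjusted p 0.0498). Both were called without both libraries that stood apart (1.43 and 0.79), and neither without operated 5-week replicate 3 alone (1.06, adjusted p 0.0702, and 0.54, adjusted p 0.203). None of the 8 regulators was called in juveniles without the libraries rich in CRYAA. UBE2L6, the conjugating enzyme of the ubiquitin-like protein ISG15, rose at both ages, by 1.74 in juveniles (adjusted p 5.21e-05) and 1.66 at 6 months (adjusted p 7.29e-05).

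Of the PA28 subunits, PSME2 was called in juveniles. It was at 25.9 to 34.3 FPKM in 6 unoperated 5-week eyes and 54.1 FPKM in replicate 6, against 45.7, 39.4 and 94.1 FPKM in 5-week and 44.6, 45.7 and 52.3 FPKM in 6.5-week operated eyes. The operated juveniles were all above those 6 controls. The change was 0.67 ± 0.19, 1.59-fold (adjusted p 0.00729), and 0.61 (adjusted p 0.00285) without both libraries that stood apart. It was not called without the libraries rich in CRYAA (0.61, adjusted p 0.0998). At 6 months it was at 31.9 to 64.3 FPKM in unoperated and 41.3 to 63.1 FPKM in operated eyes and was not called (0.34, adjusted p 0.148), except without unoperated replicate 3, which had the 64.3 FPKM (0.46, adjusted p 0.0451).

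PSME1 was at 56.9 to 63.0 FPKM in 6 unoperated 5-week eyes and 109.5 FPKM in replicate 6. The operated juveniles had 77.5, 67.0 and 158 FPKM at 5 weeks and 78.6, 73.2 and 102 FPKM at 6.5 weeks, again above the 6 lower controls. Its juvenile change of 0.44 ± 0.18 narrowly missed the threshold (adjusted p 0.0535) and was called without both libraries that stood apart, at 0.38 (adjusted p 0.0253). It was also called without any one of unoperated replicate 6, 5-week operated replicates 1 and 2 and 6.5-week operated replicate 2 (adjusted p 0.00783 to 0.0465). At 6 months it was at 71.2 to 113 FPKM in unoperated and 77.4 to 125 FPKM in operated eyes, 0.26 apart (adjusted p 0.241). In the RefSeq gene order it is separated from PSME2 by EMC9 alone.

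Of the other activators, PSME4 was lower at 6 months and PSME3 was not called. PSME4, the nuclear activator PA200, was at 13.4 to 18.2 FPKM in unoperated and 9.57 to 15.5 FPKM in operated eyes at 6 months, overlapping, and was called lower at -0.32 ± 0.12 (adjusted p 0.0335). The call was lost in 6 of the 13 fits without 1 library (adjusted p up to 0.105) and under median-ratio scaling. No fit left out both operated replicates 4 and 6. PSME4 was at 9.57 and 9.70 FPKM in them and at 11.9 to 15.5 FPKM in the other operated 6-month eyes. In juveniles it was at 15.1 to 19.9 FPKM in unoperated eyes, 16.8, 17.2 and 17.7 FPKM in 5-week operated and 15.8, 17.8 and 10.1 FPKM in 6.5-week operated eyes, and was not called (-0.19, adjusted p 0.215). PSME3, the ubiquitin-independent activator PA28 gamma, was at 37.7 to 47.2 FPKM in unoperated and 35.3 to 45.3 FPKM in operated eyes at 6 months (-0.13, adjusted p 0.0802), and it was called lower without unoperated replicate 5 or operated replicate 1 (adjusted p 0.0355 and 0.0191). In juveniles it was at 40.03 to 47.1 FPKM in unoperated eyes, and at 40.5, 40.2 and 39.2 FPKM and 39.6, 39.04 and 33.5 FPKM in 5-week and 6.5-week operated eyes (-0.14, adjusted p 0.0742). PSMF1, the inhibitor PI31, was at 21.2 to 26.4 FPKM in unoperated and 20.1 to 31.3 FPKM in operated eyes at 6 months and at 19.1 to 22.9 FPKM in unoperated 5-week eyes. Its operated values were 17.1, 17.2 and 18.2 FPKM at 5 weeks and 19.1, 17.9 and 21.9 FPKM at 6.5 weeks; neither surgery comparison was called (adjusted p 0.918 and 0.167).

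Of the 17 genes of the regulatory particle, 1 was higher and 4 lower at 6 months, with a median log2 fold change of -0.06, and 2 were lower in juveniles, with a median of 0.02. These shares of lower genes are below the 30.1% and 20.8% of all symbols. Against the median symbol 10 of 17 lay above it at 6 months and 12 in juveniles on the deposited scale. Of the 6 base ATPases 1 lay above it at 6 months under each scaling, and 2 in juveniles, or 3 under median-ratio scaling. The sum of the 12 constitutive core genes was 84.5% to 99.9% of the sum of the regulatory particle in unoperated 5-week eyes and 99.1% to 108% in operated juveniles. At 6 months it was 87.8% to 95.9% in unoperated eyes and 99.1% to 111% in 5 of the 6 operated eyes, and 87.8% in operated replicate 6. These shares do not depend on library scaling and were not tested.

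PSMD12, a scaffold of the lid, was the member with the smallest spread within groups and the clearest fall. At 6 months unoperated eyes had 68.6 to 73.0 FPKM (median 71.5) and operated eyes 52.8 to 61.5 FPKM (median 57.2). Unoperated 5-week eyes had 57.2 to 64.6 FPKM (median 63.5), the 5-week operated eyes 51.3, 52.3 and 56.2 FPKM and the 6.5-week operated eyes 53.6, 55.5 and 54.9 FPKM. The groups did not overlap at either age. The log2 fold change was -0.30 ± 0.04 at 6 months, 1.24-fold lower (adjusted p 4.96e-06), and -0.21 ± 0.04 in juveniles, 1.15-fold lower (adjusted p 0.000629). It was called under every scaling and without each library in turn, between -0.21 and -0.45 over the scalings at 6 months and between -0.17 and -0.33 in juveniles. Without the libraries rich in CRYAA the juvenile change was -0.18 and not called (adjusted p 0.0734).

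PSMD11, another lid subunit, rose at 6 months. It was at 28.5 to 31.7 FPKM in unoperated and 33.3 to 38.1 FPKM in operated eyes at 6 months, without overlap, and the change was 0.23 ± 0.05 (adjusted p 0.000539). With libraries scaled to an equal sum it was 0.08 and not called. In juveniles unoperated eyes had 30.7 to 34.6 FPKM, 5-week operated eyes 30.03, 31.6 and 36.3 FPKM and 6.5-week operated eyes 33.3, 32.99 and 34.9 FPKM, a difference of 0.04 (adjusted p 0.559). The ages differed by 0.19, with an adjusted p of 0.226. PSMD6, also of the lid, was called lower at 6 months (-0.17, adjusted p 0.0455), and the call was lost in 9 of 13 fits without 1 library (adjusted p up to 0.153) and under median-ratio scaling. It was at 30.6 and 30.7 FPKM in operated 6-month replicates 4 and 6 and at 36.5 to 42.6 FPKM in the other operated 6-month eyes. No fit left out both replicates.

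Of the ATPases, PSMC2 was lower at both ages. It was at 29.4 to 33.5 FPKM in the 6 operated juveniles and 34.6 to 40.7 FPKM in their controls, without overlap, a change of -0.23 ± 0.06 (adjusted p 0.00282). At 6 months it was at 34.6 to 45.2 FPKM in unoperated (median 41.5) and 33.6 to 37.4 FPKM in operated eyes (median 36.2), overlapping, and changed by -0.19 ± 0.06 (adjusted p 0.00913). Under median-ratio scaling the 6-month change was -0.09 and not called.

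PSMC3 was lower at 6 months, at 60.1 to 71.5 FPKM in operated against 72.3 to 84.4 FPKM in unoperated eyes, without overlap (-0.24 ± 0.07, adjusted p 0.00449), and was not called under median-ratio scaling (-0.14). In juveniles it was at 59.4 to 76.9 FPKM in unoperated eyes, 64.5, 53.6 and 64.8 FPKM in 5-week operated and 61.6, 63.1 and 68.3 FPKM in 6.5-week operated eyes and was not called (-0.08, adjusted p 0.349). The scaffolds and ubiquitin receptors of the base were not called at either age: the smallest p in the class was that of PSMD2 at 6 months, at 46.7 to 64.4 FPKM in operated and 48.2 to 56.1 FPKM in unoperated eyes (0.10, adjusted p 0.198). In juveniles it was that of the ubiquitin receptor PSMD4, at 43.6 to 56.1 FPKM in operated and 43.1 to 52.7 FPKM in unoperated eyes (0.13, adjusted p 0.131).

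**Figure D5:**
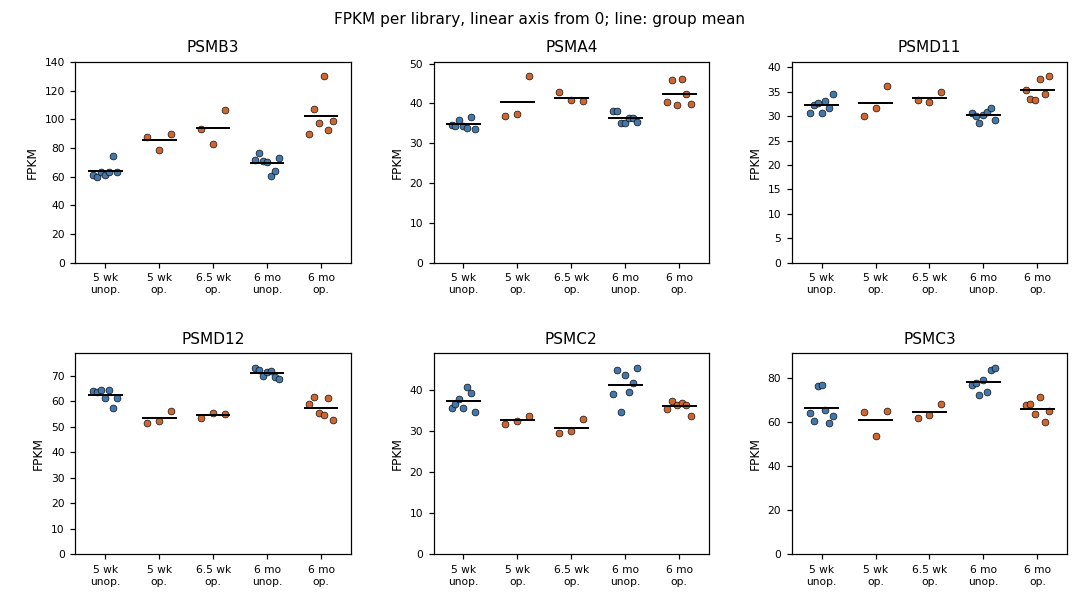
FPKM per library, on axes that start at 0, for the 6 subunits PSMB3, PSMA4, PSMD11, PSMD12, PSMC2 and PSMC3; blue points are unoperated and orange points operated eyes, and lines are group means. PSMB3 and PSMA4 are higher and PSMD12 is lower in operated eyes at both ages without overlap, while PSMD11 and PSMC3 separate the groups at 6 months.

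Of 8 assembly factors 1 was called at 6 months and none in juveniles, against 46.1% and 37.3% of all symbols called in either direction. POMP, the chaperone that matures the core and is then degraded, was at 79.0 to 98.8 FPKM in unoperated and 89.6 to 108 FPKM in operated eyes at 6 months and was called higher (0.17 ± 0.06, adjusted p 0.0366). The call was lost in 8 of 13 fits without 1 library (adjusted p up to 0.092) and under equal-sum scaling (0.02). Its juvenile values were 76.4 to 93.6 FPKM in unoperated eyes, 83.1, 78.2 and 90.9 FPKM in 5-week operated and 96.0, 87.7 and 104 FPKM in 6.5-week operated eyes (0.11, adjusted p 0.206). None of the other 7 factors was called in either comparison by limma, and none had an unadjusted p under 0.05. In juveniles the smallest p was that of PSMG2, at 16.3 to 22.3 FPKM in operated and 19.8 to 23.5 FPKM in unoperated eyes (-0.16, adjusted p 0.123).

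PSMC3IP, which is not a proteasome part, was low throughout. It was at 1.03 to 1.58 FPKM in unoperated and 1.74 to 3.55 FPKM in operated eyes at 6 months, without overlap (0.66 ± 0.15, 1.58-fold, adjusted p 0.00114). In juveniles it was at 1.60 to 3.29 FPKM in unoperated eyes, 2.06, 1.70 and 2.83 FPKM in 5-week operated and 1.96, 1.76 and 2.0 FPKM in 6.5-week operated eyes (-0.06, adjusted p 0.787). The summed FPKM of 8 genes of dividing cells was 4.12 to 6.50 in unoperated and 59.1 to 125 in operated 6-month eyes, and 18.2 to 38.7 and 40.02 to 89.9 in juveniles. The part of dividing cells in these values was not tested.

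Age in unoperated eyes was compared as 6 months against 5 weeks, which uses the control groups of both surgery comparisons. Of the members, 7 were higher at 6 months and 1 lower, against 11.4% and 9.46% of all symbols, and the median over the members was 0.11 against 0.04 over all symbols. The lid genes PSMD12 (0.19 ± 0.04, adjusted p 0.00275) and PSMD7 (0.22 ± 0.06, adjusted p 0.0116), the ATPase PSMC3 (0.24 ± 0.06, adjusted p 0.0105) and the alpha ring gene PSMA2 (0.20 ± 0.05, adjusted p 0.0099) were higher and were called without each library in turn. Without the libraries rich in CRYAA, which leaves 3 controls of 5 weeks, no member was called higher (adjusted p 0.0943, 0.184, 0.115 and 0.283 for these 4, with changes of 0.20, 0.21, 0.25 and 0.16). Without overlap between the ages PSMD12 was at 57.2 to 64.6 FPKM at 5 weeks and 68.6 to 73.0 FPKM at 6 months, and PSMD7 at 39.99 to 45.7 and 46.2 to 51.8 FPKM. PSMB6 (0.17, adjusted p 0.0331), PSMC5 (0.24, adjusted p 0.0453) and PSMB8 (1.28 ± 0.43, adjusted p 0.038) lost the call in 7, 11 and 10 of the 14 fits that left out 1 library (adjusted p up to 0.0765, 0.0907 and 0.088). Without both libraries that stood apart PSMB8 was 1.59 (adjusted p 0.00121), and PSMB9, not called with them (1.57, adjusted p 0.062), was 2.02 (adjusted p 0.00141). PSMB9 was also called without unoperated 5-week replicate 6 or 6-month replicate 1 alone (adjusted p 0.00763 and 0.0271). The summed lymphocyte markers were 0.22 to 8.66 FPKM at 5 weeks and 1.18 to 27.8 FPKM at 6 months, and 2 of the 3 measured were called higher; their part in these values was not tested. PSMC3IP was lower at 6 months (-0.64 ± 0.15, adjusted p 0.00327), as were 7 of 8 genes of dividing cells.

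With libraries scaled to an equal sum only 1 member was higher with age in unoperated eyes and 3 were lower. Among operated eyes, 6 months against juveniles, 3 members were higher and none lower by limma (9 of 46 had an unadjusted p under 0.05 in either direction), against 5.88% and 9.78% of all symbols. They were PSMF1 (0.33 ± 0.09, 1.26-fold, adjusted p 0.0179), PSMD7 (0.20, adjusted p 0.0328) and PSMC2 (0.18, adjusted p 0.0387). PSMC2 was at 29.4 to 33.5 FPKM in operated juveniles and 33.6 to 37.4 FPKM in operated 6-month eyes, without overlap. PSMF1 lost the call without operated 6-month replicate 4, which had 27.7 FPKM (adjusted p 0.0514), PSMD7 in 6 of 12 and PSMC2 in 9 of 12 such fits (up to 0.0941 and 0.087). Between operated eyes of 6.5 and 5 weeks no member was called and none had an unadjusted p under 0.05; 0.0154% of all symbols were called, 0.00772% in each direction.

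Genes of the wider ubiquitin pathway were called in both directions, to be read against the 16.0% of all symbols higher and 30.1% lower at 6 months and the 16.5% and 20.8% in juveniles. Of 9 genes of ubiquitin and its enzymes measured of 12 listed, 3 were higher and 2 lower at 6 months, and 2 higher and 1 lower in juveniles. UBB, which encodes ubiquitin itself, was higher at both ages (0.31 and 0.47), and the conjugating enzyme UBE2K was lower at both (-0.47 and -0.32). The juvenile call of UBE2K was lost without the libraries rich in CRYAA. UBE2D3 was higher at 6 months (0.38) and UBE2D2 lower (-0.15). Of 15 proteasome cofactors measured of 19 listed, none was higher at either age by limma's adjusted p (1 at each age had an unadjusted p under 0.05), and 6 were lower at 6 months. Those were the deubiquitinase UCHL5 (-0.38), KIAA0368, the proteasome scaffold also called ECPAS (-0.35), the assembly regulator PAAF1 (-0.35), ZFAND5 (-0.28), the ubiquitin ligase UBE3C (-0.22) and TXNL1 (-0.22). In juveniles UBQLN2, a shuttle that brings substrates to the proteasome (-0.27), and ZFAND5 (-0.28) were lower. ZFAND5 was not called without both libraries that stood apart (adjusted p 0.078). Only 1 of the 15 cofactors was lower in juveniles without the libraries rich in CRYAA. Among the regulators NFE2L2, an oxidative stress factor, was higher at both ages (0.35 and 0.19, or 0.16 and not called in juveniles without both libraries that stood apart, adjusted p 0.0712), DDI2, the protease that activates NFE2L1, lower at 6 months (-0.37), and AKIRIN2, which brings proteasomes into the nucleus, lower in juveniles (-0.24). The juvenile calls of NFE2L2 and AKIRIN2 were lost without the libraries rich in CRYAA. NFE2L1, which restores proteasome gene expression when the protease is blocked, was not called at either age (-0.04, adjusted p 0.517, and 0.09, adjusted p 0.172).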

How the data were processed

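The deposited table gives FPKM per RefSeq transcript and library, per the file headers, for 16725 transcripts. RSEM 1.2.12, Bowtie2 2.2.5, HISAT2 2.0.4 and HISAT are listed, without roles, per the submitters' processing notes; genome build and annotation: not given in the sources used here. Only transcripts above 1 FPKM throughout at least 1 of 4 groups are listed, so transcripts low everywhere are not seen, and 1.133% of the values are 0.

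FPKM were summed per symbol, and values were analysed as log2(FPKM + 0.5), a scale on which the change of low genes is understated. A filter of 1 FPKM in at least 3 libraries removed 0 symbols. With limma 3.58.1 in R 4.3.3 (mean-variance trend, robust moderation), 6 comparisons were fitted with 1 mean per group over 26 libraries, adjusted by the Benjamini-Hochberg method over 12948 symbols. The procedure was tested on simulated data. Tables were made with Python 3.11.15, pandas 2.3.3 and numpy 2.4.6.

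The members, the other gene lists and the tests were chosen with earlier results of these data known. By the naming rule any member may be named, with values in every group for PSMB5 to PSMB10, the activators, the inhibitor, POMP and the member of each class with the smallest p; genes of the other lists are named where called, and NFE2L1 was added after its values were seen. Some genes of these lists are not reported here. RefSeq names and gene order come from assembly mOryCun1.1. Alternatives covered the pseudocount, the filter, library scaling, the groups in the fit and left-out libraries.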

Additional observations from a re-analysis of the deposited data

Results flagged for a closer look

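In groups of 4 to 10 libraries, 13 of 138 gene and group combinations had 1 library far from the others by Dixon's criterion. Chance alone meets it in about 1 in 20 for a single combination. The combinations share libraries and are not independent, so the count cannot be judged by that rate. The operated groups of 5 and 6.5 weeks, with 3 libraries each, were too small to be screened. Of the 13, 7 were unoperated 5-week replicate 6. There PSMB8 stood at 19.1 FPKM (others 3.30 to 5.06), PSMB9 at 23.1 (0.96 to 3.85), PSMB10 at 32.3 (14.7 to 20.2), PSME1 at 109.5 (56.9 to 63.0) and PSME2 at 54.1 (25.9 to 34.3). The same library had PSMB3 at 74.2 FPKM (59.6 to 63.3) and PSMB4 at 97.6 (73.3 to 80.2), so that 2 standard beta subunits stood out with the inducible ones. Among unoperated 6-month eyes, replicate 3 had PSMB10 at 35.8 FPKM (14.6 to 23.6) and PSME2 at 64.3 (31.9 to 45.4). In the same group replicate 2 had PSMB4 at 102 FPKM (83.0 to 90.5), and replicate 6 had the assembly factor PSMG4 at 24.9 (16.3 to 19.8). Among operated 6-month eyes replicate 2 had PSMB9 at 27.9 FPKM (9.67 to 16.0), and replicate 6 had the assembly factor PSMG2 low, at 14.4 (20.3 to 21.6).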

How the results depend on the processing

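The counts of called members moved with library scaling and with the libraries left out. At 6 months surgery gave 10 higher and 1 lower under median-ratio scaling. Equal-sum scaling of the libraries gave 2 and 16. Over the fits without 1 library the 6-month count of lower members had a minimum of 3 and a maximum of 6. In juveniles equal-sum scaling gave 4 higher and 9 lower, 6.5-week operated eyes alone gave 3 higher, 5-week operated eyes alone gave 1 lower, and leaving out the libraries above 1000 FPKM of CRYAA gave 1 higher and 1 lower.

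With age in unoperated eyes equal-sum scaling gave 1 higher and 3 lower, the 5 FPKM filter 0 lower, only the groups compared 2 lower, and the fit without libraries rich in CRYAA 0 higher; without 1 library 4 to 10 were higher. With age in operated eyes median-ratio scaling gave 6 higher, equal-sum scaling 0 higher and 3 lower, only the groups compared 0 higher, 6.5-week eyes alone 0 higher, 5-week eyes alone 1 lower, and the fit without CRYAA-rich libraries 1 higher and 1 lower; without 1 library 0 to 6 were higher and 0 to 1 lower. PSMB8 in juveniles was not called without the CRYAA-rich libraries (1.37, adjusted p 0.163), nor was PSMB9 (1.43, adjusted p 0.291), which also missed with only the groups compared (adjusted p 0.0501).

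Values near 0 changed sign. PSMB10 in juveniles was -0.11 under equal-sum scaling, -0.19 with 6.5-week eyes alone, -0.15 without the late-numbered 5-week samples, -0.19 without the 2 libraries that stand apart (an alternative chosen after seeing the data) and -0.31 to 0.21 without 1 library. In juveniles PSMD11 was -0.086 under equal-sum scaling and -0.0039 without those 2 libraries, and POMP -0.020 under equal-sum scaling. PSMB5 at 6 months was -0.12 under equal-sum scaling and -0.020 without CRYAA-rich libraries. The difference of the surgery effects for PSMB3 was -0.0080 with 6.5-week eyes alone and -0.010 (without operated 6-month replicate 4) to 0.11 without 1 library. Alternative values were counted for some pairs of member and comparison, not for all 46 members in all 6 comparisons. Of these 1532 values 1364 kept direction and side of the threshold, 135 lost the call, 18 gained it and 15 changed sign. Where the alternative itself does not hold fewer samples or genes, the cause was not tested. Replicate numbers only name libraries: No paired analysis was possible because no label number is shared between operated and unoperated eyes. Depth is unknown, so no counting error is given.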
